A study of Mus musculus with 11 samples.

Results

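The regions described here are 576 tiles of 1000 bp in which granulocyte-macrophage progenitors (GMP) of control mice were more methylated than the stem cell fraction (LSK) of control mice. They were chosen from 98054 autosomal tiles, of which they are 0.587%. A tile was measured where it held 3 or more C positions with a coverage of 10 or more reads in each of 10 libraries. Its level in a library is the sum of methylated reads over the sum of all reads at those positions, in percent. A tile was taken when both control GMP libraries lay above all 3 control LSK libraries and the group means lay 15 or more percentage points apart. The control values therefore chose the tiles and are given as a description. The knockout libraries took no part in the choice and give the test of whether the same tiles were higher in knockout GMP.

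The mice were C57BL/6, carried a floxed Dnmt3a gene (Dnmt3a f/f), had been given poly(I:C) in 5 injections and were studied at 12 months of age. Knockout animals also carried Mx1-Cre, a recombinase gene that poly(I:C) switches on in blood cells and in other cells that respond to interferon, and control animals had the floxed gene without Cre. Bone marrow was sorted into GMP (Lin- Sca1- cKit+ CD34+ FcgR+), with 2 knockout libraries (178 and 179) and 2 control libraries (346 and 349), and LSK (Lin- Sca1+ cKit+), with 3 knockout libraries (1327, 1333 and 1334) and 3 control libraries (1326, 1330 and 1331). The assay was enhanced reduced representation bisulfite sequencing, in which DNA is cut with MspI at CCGG, fragments of 150 to 400 bp are converted with bisulfite, and an unmethylated C is read as T. Whether each library is a separate animal is not stated in the labels, so p-values measure the spread between libraries. An 11th library, GMP 352, has labels that name both genotypes. It enters no group and no test, and its values are described at the end.

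DNMT3A is a de novo DNA methyltransferase, which places methyl groups on cytosines that carry none, whereas DNMT1 copies existing marks when DNA is replicated. As stem cells become progenitors, enhancers and genes of the stem cell programme often gain methylation and those of the new lineage lose it. Blood stem cells without DNMT3A are known for keeping their capacity for self-renewal at the expense of differentiation.

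Coverage summed over positions was lower in GMP libraries, at 95.4 to 109.7 M (1e6 reads), against 157.4 to 181.1 M in LSK libraries, so GMP levels rest on fewer reads. All GMP libraries and LSK libraries 1327 and 1326 listed 1226 to 1470 positions on the Y chromosome, and the other 4 LSK libraries listed 211 to 229. The number of Y-chromosome positions and the cell type thus overlap in part, and only autosomes were used. A run of 5 C positions of Dnmt3a (chr12:3903653-3904031) marks a segment that knockout LSK lacked, since 0 of the 5 were listed in each of the 3 libraries. Knockout GMP kept part of it, with 4 positions listed and 27.9% of the control coverage in library 178, and all 5 and 53.3% in library 179. The GMP libraries labelled knockout thus go in part against their label, and "knockout GMP" below means the libraries labelled so. The part of these retained reads in the gains described below was not tested. Of the 6 granulocyte-programme genes with measured tiles, 5 had a lower mean level in GMP than in LSK in both genotypes. The 2 tiles of Mpo, which encodes myeloperoxidase, averaged 59.2% in knockout GMP and 91.8% in knockout LSK, and 56.1% in control GMP and 93.2% in control LSK. The tile of Ctsg, which encodes cathepsin G, averaged 47.0% in knockout GMP and 89.6% in knockout LSK, and 52.1% in control GMP and 90.4% in control LSK. Cebpe, Elane and Prtn3 were also lower in GMP, Elane by little, at 86.3% in knockout GMP and 90.9% in knockout LSK. Csf1r was the exception, with 94.5% in knockout GMP and 91.1% in knockout LSK, and 94.6% in control GMP and 92.5% in control LSK.

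Promoter sequence was at hand for 44 promoter windows (250 bases before to 50 after a RefSeq start) that overlap a gaining tile. Of these windows, 3 are shown. Vwa7 and Abr have the called tiles with more than 1 measured position in a window, and Pbld1 is shown because its neighbouring positions differ. Other windows also hold measured positions, among them Gm38699 with 7 and Gm40847 with 6, whose tiles differed by 2.80 and 1.40 points in knockout cells. Sequences are RefSeq, assembly GRCm38.p6, written 5′ to 3′ on the strand of the gene. Capitals mark measured positions, as C on the printed strand or as the G opposite a measured C. Vwa7 is chr17:35016329-35016628 on the plus strand, Abr is chr11:76437256-76437555 on the minus strand, and Pbld1 is chr10:63060463-63060762 on the plus strand.
Vwa7: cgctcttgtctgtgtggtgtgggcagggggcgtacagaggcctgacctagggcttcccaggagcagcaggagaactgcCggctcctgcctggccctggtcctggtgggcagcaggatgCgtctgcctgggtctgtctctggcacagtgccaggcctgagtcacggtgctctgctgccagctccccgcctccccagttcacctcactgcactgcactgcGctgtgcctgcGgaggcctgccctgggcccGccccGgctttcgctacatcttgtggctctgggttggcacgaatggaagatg
Abr: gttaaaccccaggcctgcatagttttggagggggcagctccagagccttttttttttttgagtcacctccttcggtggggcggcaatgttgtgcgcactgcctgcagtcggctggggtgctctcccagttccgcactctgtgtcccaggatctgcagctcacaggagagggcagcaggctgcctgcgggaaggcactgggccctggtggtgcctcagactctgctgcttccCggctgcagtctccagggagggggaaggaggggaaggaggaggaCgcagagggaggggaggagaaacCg
Pbld1: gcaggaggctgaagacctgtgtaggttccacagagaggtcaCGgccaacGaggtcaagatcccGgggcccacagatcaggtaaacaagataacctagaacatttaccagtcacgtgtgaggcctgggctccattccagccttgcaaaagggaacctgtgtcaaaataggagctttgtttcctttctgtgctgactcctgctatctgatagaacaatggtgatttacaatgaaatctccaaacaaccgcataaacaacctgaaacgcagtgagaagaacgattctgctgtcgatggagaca

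All 6 measured positions of the Vwa7 tile lie in its window, between 172 bases upstream and 3 bases downstream of the start. At single positions they read 3.19% to 33.3% in knockout GMP and 0% to 6.34% in knockout LSK. Their control levels were 10.5% to 67.7% in GMP and 1.33% to 27.9% in LSK. The Abr window holds 3 of the 18 measured positions of its tile, and the Pbld1 window 4 of 5. The paired capitals CG of Pbld1 read 43.3% and 38.7% on one strand and 27.4% and 25.4% on the other in knockout GMP, against 0% to 10.7% in knockout LSK. The other 2 capitals of that window read 0% in both knockout GMP libraries. CCGG, the MspI site, occurred in 63.6% of the 44 windows and in 53.5% of all 31396 RefSeq windows of that length. On both strands, AGATAA, which GATA factors are known to bind, was found in 13.6% of the 44 and 11.2% of all windows. The RUNX motif TGTGGT was found in 11.4% of the 44 and 16.7% of all windows. The ETS motif GGAAGT was found in 27.3% of the 44 and 23.9% of all windows. None of these motifs is contained in another, and a match describes the window only.

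The 576 tiles held 3641 C positions, with a median of 4 a tile against 5 over all tiles, and 195 tiles stood at the minimum of 3. They fell into 564 runs of adjacent tiles and were assigned to 534 genes, the overlapping gene or otherwise the nearest protein-coding gene. Gene bodies held 49.7% of them and 43.9% of all tiles, and 23.8% lay within 1000 bp of a gene's end against 31.9% of all tiles. A promoter window was touched by 6.23% of the 562 tiles on chromosomes with promoter sequence and by 14.6% of all such tiles. Tiles at intermediate levels, with control LSK between 20% and 85%, touched one in 5.32%. The gain in control cells, which the rule used, ran from 15 to 75.8 points with a median of 18.96.

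The GMP libraries labelled knockout, which kept 27.9% and 53.3% of the control coverage of the Dnmt3a segment, were higher than knockout LSK at most of the tiles. The median difference was smaller than in the control cells that chose the tiles, and this was not tested, since the rule sets the control gain. Over the 576 tiles the median of knockout GMP minus knockout LSK was 12.5 points, with quartiles of 5.57 and 19.6, where the median over all tiles was -0.08 points. The difference was above 0 in 497 tiles (86.3%), against 46.4% of all tiles. It reached 15 points in 229 tiles, lay between 0 and 15 in 268 and was 0 or less in 79, and it exceeded the control gain in 135. Across the 576 tiles the 2 gains were only loosely related, with a Pearson r of 0.20 and a Spearman rank coefficient of 0.25 over tiles that share the same libraries and a floor on one axis.

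**Figure D1:**
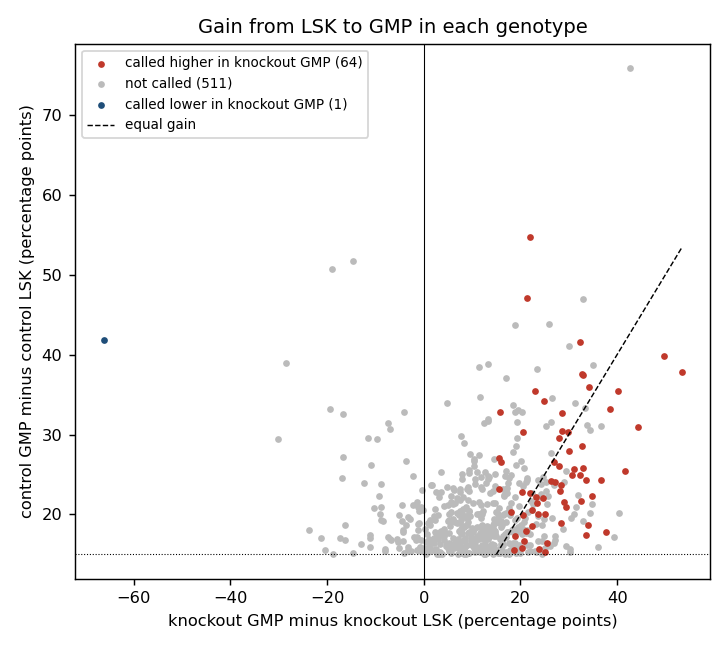
Each point is one of the 576 tiles, with the knockout gain on the x axis and the control gain on the y axis, both as GMP minus LSK in percentage points. The dotted line is the 15-point limit of the rule, the 64 red points were called higher in knockout GMP, and 1 blue point, the Dmrtb1 tile, was called lower.

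In 339 of the 576 tiles (58.9%) both knockout GMP libraries lay above all 3 knockout LSK libraries, against 12.2% of all tiles. The opposite order held in 18 tiles, against 15.8% of all tiles. Tiles at intermediate levels separate more often in general, and among tiles with control LSK between 20% and 80% the share above was 22.8%. The rule itself, repeated in the knockout libraries, was met by 209 of the 576 tiles (36.3%), against 1.1% of all tiles and 6.46% of those at intermediate levels. These 209 are also 19.4% of the 1079 tiles that met the rule in knockout cells. The 1079 tiles had a median knockout gain of 19.2 points and a median control gain of 6.95 points.

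Mean levels over the 576 tiles were 47.1% and 50.1% in knockout GMP 178 and 179, against 40.7%, 32.8% and 35.5% in knockout LSK 1327, 1333 and 1334. The knockout GMP libraries were both higher than every knockout LSK library, and 179 was the higher of the pair. Library 179 also kept more of the Dnmt3a segment, and a link between this and its level was not tested. The control libraries had 64.5% and 64.0% in GMP, against 43.8%, 44.1% and 42.1% in LSK. Knockout GMP thus lay below control GMP and nearer to control LSK on this mean. The control values chose the tiles, high in GMP and low in LSK, so this place is biased by the choice and was not tested. Over all tiles the group means were 60.6% ± 0.12 in knockout GMP, 60.5% ± 0.53 in knockout LSK, 61.9% ± 0.10 in control GMP and 62.3% ± 0.05 in control LSK (SD, n = 2, 3, 2 and 3). Library 179 exceeded library 178 in 361 of the 576 tiles (62.7%), against 49.5% of all tiles.

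**Figure D2:**
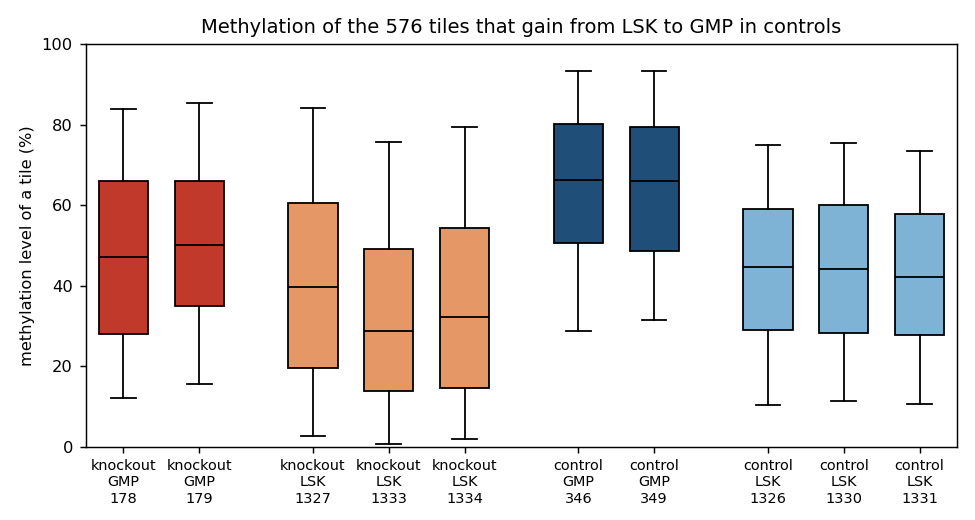
Boxes show the median and quartiles of the methylation level (%) of the 576 tiles in each library, with whiskers at the 5th and 95th percentiles. The control boxes are set apart by the rule, and both knockout GMP medians, 47.2% and 50.0%, lie above the knockout LSK medians of 39.7%, 28.6% and 32.1%.

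The 3 knockout LSK libraries did not give the same gain. Against library 1327 alone the median gain was 7.89 points, against 1333 alone 15.4 and against 1334 alone 13.9. Library 1327 is the knockout LSK library that shares with GMP a high number of Y-chromosome positions. Both knockout GMP libraries lay above it in 383 tiles (66.5%), against 27.1% of all tiles. In controls the median gain against LSK library 1326, which lists as many such positions, was 18.9 points.

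Relative to control, the tiles were lower on the median in both knockout populations. Both knockout GMP libraries lay below both control GMP libraries in 424 tiles, or 73.6%, against 26% of all tiles, with a median difference of -15.1 points. All 3 knockout LSK libraries lay below all 3 control LSK libraries in 201 tiles, or 34.9%, against 15.5% of all tiles, and above them in 30, or 5.21%, against 3.35%. The median difference in LSK was -4.54 points. Since control values chose the tiles, high in GMP and low in LSK, these counts are biased by the choice and were not tested.

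The level in knockout LSK sorted the tiles by how often knockout GMP stood apart. Of 87 tiles with a knockout LSK mean under 10%, 92.0% had both GMP libraries above all LSK libraries, against 11.4% of all tiles at that level. The share was 73.8% of 80 tiles between 10% and 20%, against 27.7% of all tiles at that level. It was 63.3% of 166 between 20% and 40%, against 27.5%, and 47.1% of 138 between 40% and 60%, against 23.8%. Between 60% and 80% it was 32.5% of 80 tiles, against 20.8% of all tiles at that level. Above 80% it was 16.0% of 25, against 9.01%, and the median gain of the 25 was -4.26 points. Knockout LSK enters both the level and the separation, so the shares of all tiles in the same bin are the values to set beside them.

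**Figure D3:**
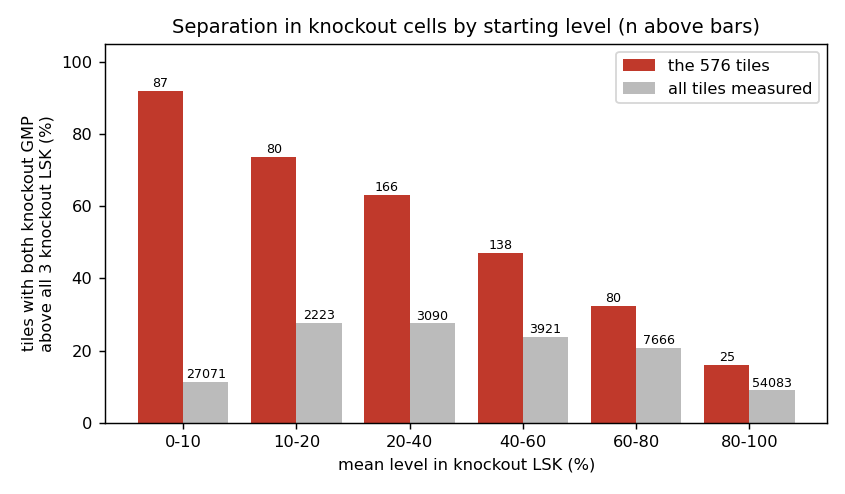
Bars show the percentage of tiles in which both knockout GMP libraries exceed all 3 knockout LSK libraries, by mean level in knockout LSK (%), for the 576 tiles (red) and all tiles measured (grey), with the number of tiles above each bar. The red share falls from 92.0% in the lowest bin to 16.0% in the highest and lies above the grey share in each bin.

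Single tiles were tested with a quasi-binomial model of methylated and unmethylated reads in the 5 knockout libraries, adjusted over all 98054 tiles (Benjamini-Hochberg). A tile was called when the adjusted p was under 0.05 and the group means differed by 15 points or more. In this moderated test 64 of the 576 tiles (11.1%) were called higher in knockout GMP, against 0.16% of all tiles and 0.989% of those at intermediate levels, and 1 was called lower, against 0.549%. The 64 are 40.8% of the 157 tiles called higher anywhere. Another 7 passed the adjusted p with a gain under 15 points, and 311 of the 576 had an unadjusted p under 0.05. The count rested on single libraries: 22 tiles were called without knockout GMP 178, 1 without knockout GMP 179, 101 without knockout LSK 1327, 113 without 1333 and 35 without 1334. The tile still called without 179 was that of Gfi1. Limma on logit levels called 24 of the 576.

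The call selects tiles with a high knockout GMP and a low knockout LSK, so the levels of the 64 are a description. The 64 called tiles had knockout gains of 15.5 to 53.3 points, median 28.03, and control gains of 15.3 to 54.7, median 24.2. Their medians were 36.6% and 46.9% in knockout GMP, against 11.3%, 11.5% and 8.88% in knockout LSK. In controls they were 64.5% and 68.6% in GMP and 39.5%, 38.5% and 34.1% in LSK. Knockout LSK had the lowest medians of the 4 groups and control GMP the highest. Of the 64, 44 lay in gene bodies, 12 at gene ends and 8 between genes. Over the whole set, tiles in gene bodies separated in knockout cells in 65.4%, those at gene ends in 62.0% and those between genes in 43.8%. The share was 12.2% of all tiles at any location. Shares of all tiles at each location were not worked out, so the differences between locations are described only.

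The gene with the smallest adjusted p was Gfi1, a transcriptional repressor that acts in stem cells and in neutrophil development. Its tile (chr5:107721001-107722000, in the gene body, 32 positions) stood at 40.7% and 41.4% in knockout GMP, against 5.52%, 10.7% and 8.92% in knockout LSK. The knockout groups were far apart and each was narrow. In controls it stood at 63.6% and 84.4% in GMP and 35.0%, 41.1% and 33.1% in LSK. The tile rose by 32.6 points in knockout cells (limma-moderated quasi-binomial test, adjusted p = 0.000574) and was 37.6 points higher in control GMP. All 32 positions were higher in knockout GMP, by 12.4 to 49.4 points.

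Kcnn4, which encodes a calcium-activated potassium channel, was chosen after its values were seen because its called tile holds many positions. The tile (chr7:24377001-24378000, gene body, 46 positions) stood at 39.4% and 47.0% in knockout GMP, against 13.6%, 10.8% and 6.42% in knockout LSK. Control GMP was higher, at 82.4% and 85.4%, and control LSK, at 51.7%, 44.4% and 43.3%, was near knockout GMP. The gain was 32.9 points in knockout cells (moderated test, adjusted p = 0.0012). The group mean was higher at 46 of 46 positions, and the libraries did not overlap at 39 of them. The called tile of Arhgap9, chosen in the same way, rose at 60 of 60 positions, by 1.69 to 60.004 points, without overlap at 51. These positions come from the reads that gave the calls and are a description.

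**Figure D4:**
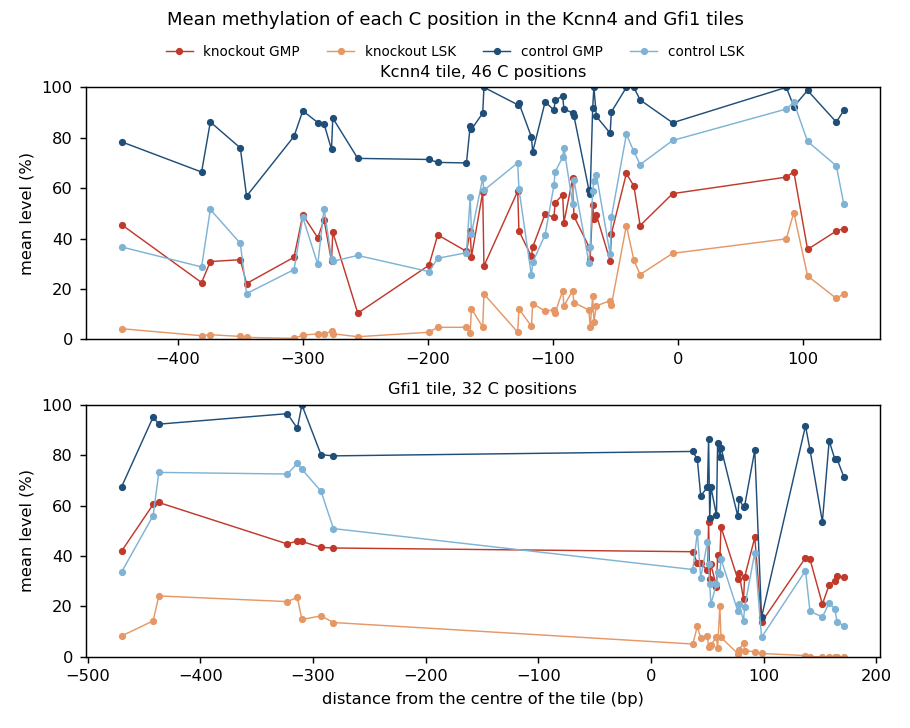
Mean methylation (%) of each C position across the libraries of a group, against its distance from the centre of the tile (bp), in the Kcnn4 tile (46 positions) and the Gfi1 tile (32 positions). Knockout GMP lies above knockout LSK at every position of both tiles, and control GMP is the highest line at nearly all of them.

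Among genes that act in stem cells and blood lineages, Egfl7, the host gene of miR-126, had one of the largest control gains. Its tile (chr2:26585001-26586000, 4 positions) stood at 19.4% and 25% in knockout GMP, against 0.179%, 0.439% and 2.14% in knockout LSK. Knockout LSK was almost unmethylated, and the values did not overlap. Control GMP had 79.3% and 80.2%, and control LSK 34.7%, 28.6% and 34.7%. It rose by 21.3 points in knockout cells (moderated test, adjusted p = 0.00636), against 47.1 in controls.

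Cbfa2t3 encodes a corepressor of the ETO family. Its tile (chr8:122674001-122675000, 14 positions) stood at 39.5% and 59.1% in knockout GMP, against 14.5%, 11.03% and 9.53% in knockout LSK, and at 78.9% and 89.1% in control GMP, against 65.4%, 69.9% and 63.3% in control LSK. All 3 knockout LSK libraries were below every other assigned library. The gain was 37.6 points in knockout cells (moderated test, adjusted p = 0.00213) and 17.8 in controls, a difference that was not tested. Zmiz1, a transcriptional coactivator, had 41.7% and 53.5% in knockout GMP, against 8.13%, 9.93% and 9.56% in knockout LSK (chr14:25634001-25635000, 4 positions). Its knockout groups did not overlap, and the gain was 38.4 points (adjusted p = 0.00223) against 33.2 in controls.

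Pik3r1, which encodes a regulatory subunit of phosphoinositide 3-kinase, had 4 gaining tiles, of which 1 was called. The called Pik3r1 tile (chr13:101692001-101693000, 3 positions) stood at 16.9% and 29.6% in knockout GMP, against 0.493%, 1.77% and 1.57% in knockout LSK. In controls it stood at 60.6% and 68.5% in GMP and 5.45%, 9.95% and 14.1% in LSK. Knockout GMP was thus higher than both LSK groups and lower than control GMP. The gain was 22.0 points in knockout cells (moderated test, adjusted p = 0.0121) and 54.7 in controls, the second highest control gain of the set. The other Pik3r1 tiles differed by 7.28 to 14.4 points in knockout cells and were not called. The tile of Akt2, a protein kinase gene (chr7:27596001-27597000, 4 positions) stood at 24.1% and 38.2% in knockout GMP, against 3.24%, 2.74% and 1.89% in knockout LSK. Its groups did not overlap, and it rose by 28.5 points (adjusted p = 0.00256), against 30.4 in controls. The called Pik3r1 tile and the Akt2 tile touch a promoter window of their gene, but their measured positions lie outside it.

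Promoter windows were touched by 35 tiles, of which 24 had both knockout GMP libraries above all knockout LSK libraries and 5 were called, where the shares were 58.9% and 11.1% over the 576 tiles and 12.2% and 0.16% over all tiles. The Vwa7 tile (chr17:35016001-35017000), whose sequence is shown above, stood at 18.7% and 15.5% in knockout GMP, against 2.93%, 1.51% and 0.517% in knockout LSK. Control GMP had 36.5% and 40.4%, and control LSK 10.4%, 11.6% and 11.9%. Each group was tight and none overlapped another. It rose by 15.5 points in knockout cells (adjusted p = 0.00681). The Abr tile stood at 46.8% and 61.1% in knockout GMP, against 30.7%, 32.3% and 23.6% in knockout LSK, and rose by 25.1 points (adjusted p = 0.0323). The Pbld1 tile had 13.1% and 15.3% in knockout GMP, against 0.978%, 2.88% and 1.85% in knockout LSK. Its groups did not overlap, but it missed the threshold (12.3 points, adjusted p = 0.0528).

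The 10 called tiles with the largest knockout gains lay mostly in gene bodies, which held 49.7% of the 576 tiles and 43.9% of all tiles. With 10 tiles this is a description only. Scarb2, which encodes a lysosomal membrane protein, had 69.4% and 61.1% in knockout GMP, against 9.47%, 14.2% and 12.0% in knockout LSK (53.3 points, adjusted p = 0.0013). Macrod1, an enzyme that removes ADP-ribose from proteins, had 53.0% and 62.2% in knockout GMP, against 13.7%, 3.19% and 7.09% in knockout LSK (49.6 points, adjusted p = 0.00256). Pde6h, a phosphodiesterase subunit known from cone photoreceptors, had 40.7% and 53.8% in knockout GMP, against 2.27%, 3.50% and 3.24% in knockout LSK (44.3 points, adjusted p = 0.000725). In all 3 of these tiles knockout GMP and knockout LSK were well separated. With Zmiz1 and Cbfa2t3, the 10 highest also held tiles in the bodies of Mlycd and Ddx39a and tiles between genes, 114830 bp from Parp11, 112886 bp from Itga6 and 1615 bp from Pqlc3, with gains of 34.2 to 41.5 points.

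**Figure D5:**
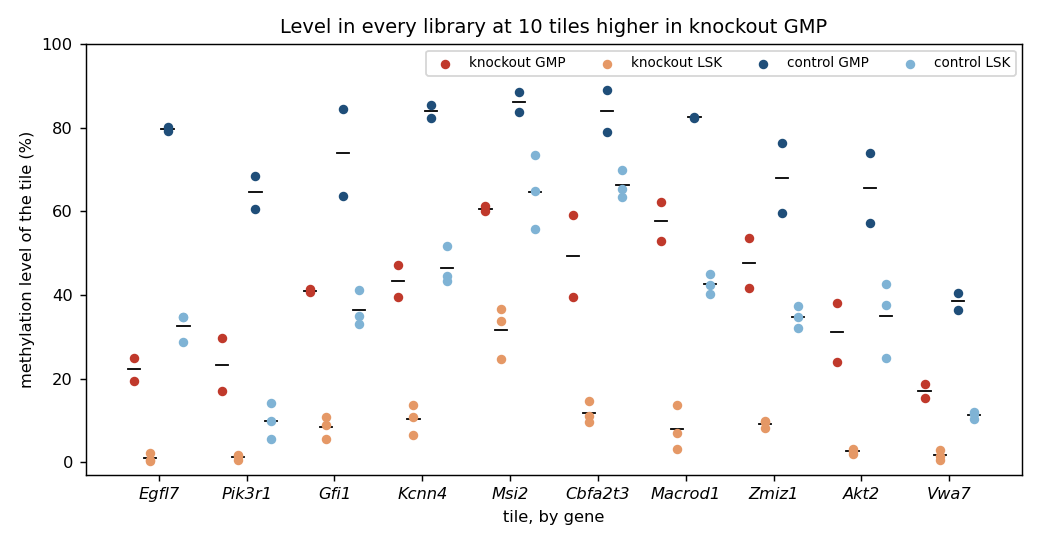
Methylation level (%) of 10 called tiles in every assigned library, with a bar at each group mean, in the order knockout GMP, knockout LSK, control GMP and control LSK within each gene. Knockout LSK is the lowest group at each of the 10 tiles, and knockout GMP lies below control GMP at each.

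Of the gene lists, the one for stem cell self-renewal had 7 gaining tiles of 378 measured, in Hlf, Mn1, Msi2, Nfix and Prdm16. This is 1.85%, against 0.587% of all tiles, and 1 of the 7, in Msi2, was called higher, where 11.1% of the 576 tiles were. Of all 378 tiles of the list, 4 were called higher and 3 lower. Msi2 is an RNA-binding protein that sustains blood stem cells, and its called tile (chr11:88468001-88469000, 8 positions) stood at 60.03% and 61.3% in knockout GMP, against 33.9%, 36.6% and 24.6% in knockout LSK. The control levels were 88.5% and 83.8% in GMP and 55.7%, 64.8% and 73.4% in LSK. The groups were apart in both genotypes, and the tile rose by 29.0 points in knockout cells (moderated test, adjusted p = 0.0121). A second Msi2 tile had 8.65% and 8.44% in knockout GMP, against 1.97%, 0.742% and 1.71% in knockout LSK, a difference of 7.07 points that was not called. The remaining Msi2 tile overlapped and was not called, with 44.9% and 33.3% in knockout GMP, against 27.0%, 38.4% and 29.4% in knockout LSK. The Nfix tile, in a gene for a nuclear factor I protein, had 14.3% and 42.3% in knockout GMP, against 4.96%, 6.89% and 2.71% in knockout LSK. Its GMP libraries differed widely from each other, and its adjusted p was 0.0572.

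Hlf, which encodes a transcription factor of stem cells, had 23.7% and 37.3% in knockout GMP, against 19.03%, 29.8% and 26.2% in knockout LSK. These ranges overlapped, while the control levels were 62.3% and 63.9% in GMP and 39.9%, 49.1% and 44.8% in LSK. The Prdm16 tile also overlapped in knockout cells, with 22.2% and 32.9% in GMP against 25.1%, 3.89% and 11.5% in LSK. Prdm16 encodes a transcription factor needed for stem cell maintenance. The gene with the largest number of gaining tiles was Mn1, a transcriptional coactivator involved in myeloid leukaemia. Its 5 tiles include tiles 112971 to 384971 bp from the gene, assigned to it as the nearest protein-coding gene. Their knockout gains were 6.97 to 35.1 points, and none was called. Septin9, a cytoskeletal GTPase gene, had 4 tiles with differences of -10.3 to 14.5 points, and Kcnk12, a potassium channel gene, had 3 with 8.99 to 18.5 points, none called.

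The Hox list had 4 gaining tiles of 158 measured (2.53%), and in all 4 both knockout GMP libraries lay above all knockout LSK libraries, as in 58.9% of the 576 tiles and 12.2% of all tiles. None of the 4 was called. HOX proteins are transcription factors, several of which act in stem and progenitor cells. One Hoxa3 tile (chr6:52209001-52210000) had 15.6% and 17.0% in knockout GMP, against 4.98%, 2.86% and 2.93% in knockout LSK, and 50.0% and 40.5% in control GMP, against 22.4%, 17.2% and 20.3% in control LSK. Its groups did not overlap and its adjusted p was 0.034, but the 12.7 points were under the limit for a call. The other Hoxa3 tile and those of Hoxb3 and Hoxb6 differed by 26.6, 7.93 and 5.22 points and were not called.

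The myeloid list had 1 gaining tile of 73, that of Gfi1, and the erythroid, megakaryocyte and mast cell list 1 of 109, that of Zfpm1, a cofactor of GATA1. The Zfpm1 tile had 32.8% and 41.1% in knockout GMP, against 20.1%, 14.6% and 9.19% in knockout LSK. It rose without overlap (22.3 points, adjusted p = 0.032). The lymphoid list had 1 of 282, in Bcl11b, adhesion and homing had 2 of 69, in Itga6 and Itgb3, and developmental transcription factors had 2 of 343, in Foxa2 and Pax7. Stroma and endothelium had 1 of 106, that of Egfl7, and the interferon list 1 of 29, near Ifitm1. Cytokine signalling had 0 of 114 and the methylation machinery 0 of 96. Imprinted genes had 2 of 114, in Dlk1 and Impact. The size of the control gain at Impact rested on library 349, with 36.7% in control GMP 346 and 82.2% in 349, and the knockout values overlapped at 32.9% and 31.8% in GMP against 35.3%, 22.0% and 25.7% in LSK.

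The largest control gain, at Ube2ql1, a ubiquitin-conjugating enzyme gene, was uneven in knockout GMP. Its tile stood at 31.4% and 85.1% in knockout GMP, against 21.9%, 15.4% and 9.19% in knockout LSK, and at 93.2% and 78.4% in control GMP, against 8.73%, 9.57% and 11.8% in control LSK. Knockout GMP 179 was near the controls and 178 was not, and the adjusted p was 0.32. Among the other tiles with the 10 largest control gains, Armh3 was called higher in knockout GMP (32.4 points, moderated test, adjusted p = 0.0491), and Dip2c, Dst and Gm38514 differed by 33.0, 25.8 and 18.8 points without a call. Dcdc2c and A430005L14Rik, of the same 10, and Lama4, one of the 5 tiles with the lowest knockout difference, had control gains of 51.7, 50.6 and 38.9 points and knockout differences of -14.6, -18.98 and -28.6 points. In all 3 tiles knockout LSK 1327 and 1334 were high and 1333 was not. At Lama4, which encodes a laminin chain, knockout GMP had 40.2% and 30.3%, against 79.7%, 34.6% and 77.2% in knockout LSK.

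The tile called lower, near the gene Dmrtb1 (8288 bp away, chr4:107667001-107668000, 5 positions), went against the other tiles by the widest margin. It stood at 12.1% and 39.7% in knockout GMP, against 96.1%, 98.2% and 81.8% in knockout LSK, and at 87.2% and 90.9% in control GMP, against 42.2%, 63.9% and 35.6% in control LSK. The difference was -66.2 points in knockout cells (moderated test, adjusted p = 0.00813) and 41.8 points in control cells.

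Some tiles lie in windows where the listing of positions differed between cell types. Windows of 5 Mb in which C positions were read in one cell type and unlisted in the other held 119 of the 576 tiles (20.7%), against 14.8% of all tiles. Inside them knockout GMP lay above in 54.6% of tiles, with a median gain of 12.6 points, and outside them in 59.96%, with 12.5 points. The windows hold 13 of the 64 called tiles, among them those of Gfi1, Scarb2, Pde6h, Parp11, Pqlc3 and Pik3r1, and also the Ube2ql1 tile, and the other 51 called tiles lie outside them. The 8 tiles on chromosome 12 between 18 and 24 Mb, a stretch of many predicted Gm genes, had a median knockout gain of 1.19 points. At the edge of the rule, the tiles of Raet1d, Lrrc75a and Tbc1d22b had control gains of just 15 points and knockout differences of 8.28, 3.14 and 2.82 points, and those of Kcns1, Lrrc8e and Adad1, just under 15, had 10.2, 13.7 and 6.56. Summed over its positions, a median tile rested on 296 reads in a knockout GMP library, 393 in knockout LSK, 262 in control GMP and 372 in control LSK. Of the 71 tiles with 10 or more positions, 69.0% separated in knockout cells, against 51.8% of those with 3. Shares of all tiles with as many positions, or inside and outside the windows, were not worked out. These contrasts are therefore described only.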

How the data were processed

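Per the file headers, the deposited tables give, for single CpG cytosines, the coverage as a read count and the percent read as C or as T. Every listed position has at least 10 reads, so an unlisted position is not a count of 0. The submitters' processing notes name Bismark, mm10 and GRCm38, with no version or role. The number of methylated reads is the product of coverage and percent C, and every product was whole within the rounding of 3 decimals. Reads carry no molecular identifiers, so read numbers cover counting error only. In the sums over a tile, a read that spans several positions is counted at each.

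Levels were summed over fixed 1000-bp tiles. Knockout GMP and knockout LSK were compared by a quasi-binomial logistic F test, with each tile's dispersion shrunk towards a trend on log coverage (squeezeVar of limma 3.58.1 in R 4.3.3, prior from tiles with pooled levels of 5% to 95%) and kept at 1 or above, and Benjamini-Hochberg adjustment over 98054 tiles. Tested on simulated data for this comparison (98054 tiles), it recovered 7, 16, 33 and 46 of 50 tiles raised by 15, 20, 30 and 40 points, with 6 false calls among 97854 tiles. The simulated spread between libraries was drawn from the dispersion that this same test had fitted, so these numbers hold only under its own assumption. The raised tiles had knockout LSK levels between 10% and 60%. Called tiles with a level under 10%, such as those of Egfl7 and Pik3r1, are therefore not covered by these numbers. With the prior over all tiles, 0 of 50 were recovered at 40 points.

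A gene is the RefSeq gene (GRCm38.p6, the build of the files) that overlaps a tile, otherwise the nearest protein-coding gene. A gene without protein product may lie nearer. The table gives gene spans, so exons and introns were not told apart. A 5-Mb window was set apart when at least 10 positions, and 1% of those common to all, were covered by 20 or more reads in all libraries of one cell type and listed in none of the other, within a genotype. Named tiles were taken from the 10 with the largest control gain, the 10 called with the largest knockout gain, the 5 with the lowest, those at the edge of the rule, genes with 3 or more tiles, genes of 12 lists and tiles at promoters, with Kcnn4 and Arhgap9 added after their values were seen. The tiles, lists and tests were chosen with earlier results of these data known. Alternatives were other priors and models, coverage and position minima, shifted tiles, other gain limits and libraries left out. Promoter sequences on chromosome 18 were not used here.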

Additional observations from a re-analysis of the deposited data

Results flagged for a closer look

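In 18 of the 576 tiles, or 3.13%, against 15.8% of all tiles, both knockout GMP libraries lay below all 3 knockout LSK libraries, while both control GMP libraries lay above all control LSK libraries by the rule. The sign of the difference was thus opposite in the 2 genotypes, and this was not tested. Only the Dmrtb1 tile was called in the knockout comparison (limma-moderated test), and the other 17 had adjusted p-values of 0.0639 to 0.962. Knockout GMP minus knockout LSK was -66.16 points at the Dmrtb1 tile, -30.13 at Nkain3, -23.78 at 4732490B19Rik, -21.24 at Tigar and -20.36 at 1700008P02Rik. It was -19.41 at Actl6a, -18.88 at Slc30a10, -17.27 at Odc1, -16.96 at Epm2a, -16.37 at Nphp4 and -16.24 at Myt1l. It was -14.6 at Ildr1, -12.91 at Gm36752, -11.18 at A330076C08Rik, -11.17 at Col24a1, -7.941 at Ccdc30, -7.331 at Zfp872 and -4.363 at Scg2. Of these 18, 6 (Tigar, Odc1, Epm2a, Nphp4, Myt1l and Gm36752) lie in the windows where positions were unlisted in one cell type, as do 119 of the 576 tiles.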

How the results depend on the processing

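The share of tiles separated in knockout cells was 48.4% to 71.5% under every alternative run, against 58.9%. The share of all tiles moved as well, so this range does not compare like with like. With knockout GMP 178 alone above all 3 knockout LSK the shares were 67.5% of the 576 and 25.4% of all tiles. With 179 alone they were 70.5% and 23.8%, where the main run had 12.2% of all tiles. The number of calls was less stable. Against 64 gaining tiles called, 157 tiles called higher and 538 lower, a prior over all tiles gave 41, 79 and 351, limma on logit levels 24, 48 and 303, all 4 groups in one fit 118, 395 and 860, and Fisher's exact test on reads summed over libraries, with no term for library spread, 229, 1216 and 1364. Without moderation each count was 0, with 5540 tiles at an unadjusted p under 0.05. In the simulated data this setting also recovered 0 of 50 tiles raised by 40 points. Its counts of 0 therefore do not decide about the calls. The prior over all tiles recovered 0 of 50 there too, but it called 41 gaining tiles in the real data. The simulated data thus differ from the real data in this respect. With 5 or more positions a tile, 270 tiles met the rule, 103 of them also in knockout cells, and 31, 94 and 275 were called, with fewer tiles tested. A limit of 10 points gave 1584 tiles, 569 also in knockout cells, and a limit of 20 points 237 and 87, against 576 and 209. Leaving out each library in turn gave 1 to 113 gaining tiles called, 3 to 397 tiles called higher, 77 to 977 lower, and 610 to 947 tiles meeting the rule, the highest without control GMP 349. A GMP library left alone is assumed to vary like the LSK libraries. Of the 64 called tiles, 20 remained without knockout GMP 178, 1 without 179, 34 without knockout LSK 1334, 62 without 1327 and 64 without 1333. The cause of these changes was not tested. Against the knockout LSK library with many Y-chromosome positions alone, an alternative chosen after seeing the data, the median gain was 7.89 points against 12.5. No result reversed. No paired analysis was possible because the groups share no replicate numbers.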

Other observations

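GMP library 352, whose title and genotype field name different genotypes, listed 0 of the 5 positions of the Dnmt3a segment. It had values at 568 of the 576 tiles, with a mean of 41.1% and a median of 39.3%. At the 64 tiles called higher in knockout GMP its median was 9.23%, with quartiles of 4.47% and 21.0%. The medians there were 36.6% and 46.9% in knockout GMP, against 11.3%, 11.5% and 8.88% in knockout LSK. Library 352 lay below both knockout GMP libraries at 63 of the 64. It lay at or below the highest knockout LSK library at 35 and above all 3 at 29, and this was not tested. These 64 were chosen by values of the 5 libraries assigned to knockout. Summed over its positions, the Gfi1 tile had 99 methylated of 1108 reads in this library, or 8.93% (95% Wilson interval 7.39% to 10.8%). The Egfl7 tile had 1 of 264 reads, or 0.379% (0.067% to 2.11%), and the Msi2 tile 151 of 912, or 16.6% (14.3% to 19.1%). The Dmrtb1 tile had 250 of 303, or 82.5% (77.8% to 86.4%). These intervals cover counting error only. They are too narrow even for that, since a read that spans several positions is counted at each.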
